A study of Homo sapiens with 6 samples.

Results

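The nuclear-encoded subunits of the mitochondrial respiratory chain were compared between pLUM and pLB cells. They were taken by name, as the gene probes whose listed symbol began with NDUFA, NDUFB, NDUFC, NDUFS or NDUFV (complex I), SDHA to SDHD (complex II), UQCR (complex III), COX4 to COX8 (complex IV) or ATP5A to ATP5L (complex V), together with CYC1 and CYCS. This gave 111 probes of 86 gene names, out of 34127 probes and 25940 gene names on the array. Names are those of the array design. All 86 were found in a RefSeq table, where 18 have a newer symbol, such as ATP5F1A for ATP5A1, ATP5MC1 for ATP5G1 and ATP5PD for ATP5H. Of these, COX4NB is now EMC8 and is not a subunit, and UQCRBP1 is a pseudogene. Both were kept, since the name rule includes them, but neither was assigned to a complex.

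The array signals came from 2 lines that descend from T47Dco, a subline of the luminal human breast cancer line T47D, grown as xenografts in ovariectomized NSG mice. pLUM was sorted as CLD3+CD49f- cells from an estradiol (E) tumor, was maintained in E and received 1 nM E for 72 h before profiling. pLB was sorted as CLD3-CD49f+ cells from a tumor given E plus progesterone and was kept under E withdrawal (EWD). Each line is a single derivation and line and hormone coincided on all 6 arrays, so that effects of the line and of E cannot be told apart. For both lines the profiled cells were fixed, stained for CK5 and sorted once more, and which CK5 fraction was hybridized is not given in the sources used here. Each line was measured on 3 arrays, from 3 sorts, so that p-values measure the spread between sorts of 1 line.

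Respiratory chain complexes sit in the inner mitochondrial membrane. Complex I takes electrons from NADH and complex II from succinate, complex III passes them to cytochrome c, and complex IV (cytochrome c oxidase) hands them to oxygen. Complex V, the ATP synthase, uses the resulting proton gradient to make ATP. Most subunits are encoded in the nucleus and imported, whereas a small set of core subunits of complexes I, III, IV and V is encoded by mitochondrial DNA (mtDNA), so that assembly draws on transcripts of both genomes. The nuclear factors NRF1, GABPA and ESRRA are known regulators of nuclear respiratory genes.

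Signals are on a log2 scale after subtraction of each array's own 75th percentile, hence 0 is the brightness of that percentile. Differences are pLB minus pLUM on this log2 scale, from limma. A probe was called higher or lower when it differed at least 2-fold with a Benjamini-Hochberg adjusted p under 0.05 over all 23106 tested probes, that is, those well above background on at least 3 arrays. Probes hybridize with unequal strength, and signals of different probes are therefore not compared. On the same arrays, 7 of 8 luminal markers were lower in pLB, with summed linear signals of 255 to 280 in pLUM and 82.5 to 87.1 in pLB, and 8 of 8 luminobasal markers were higher, with sums of 1.21 to 1.37 in pLUM and 127 to 150 in pLB. Luminal and luminobasal markers were taken from those the paper reported for these lines, so their direction was known beforehand. They include CLDN3 (CLD3), ITGA6 (CD49f) and KRT5 (CK5), on which cells were sorted. Notch-1 and CD44, with the smallest mRNA differences of the factors the paper lists as higher in pLB, were left out. Markers of fibroblasts (6 genes), endothelium (5) and leukocytes (6) summed to 0.08 to 0.97 on the pLUM arrays and 0.10 to 1.14 on the pLB arrays. Of their tested genes, 1 of 2 fibroblast (COL1A2), 1 of 2 endothelial (VWF) and 1 of 5 leukocyte markers (CD68) were called higher in pLB, and the part of such cells in the results was not tested. Slide 1 carried pLB replicate 1 together with all pLUM arrays, and slide 2 held the remaining pLB arrays. In bulk RNA, fewer cells of a type and less RNA per cell cannot be told apart.

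Subunit transcripts called different between the lines were mainly higher in pLB, and 48 of the 82 tested genes were not called. Of the 111 probes, 104 were tested and 101 were well above background on all 6 arrays. The 7 that were not tested were the only probes of COX4I2, COX7A1, COX8C and UQCRBP1 and second probes of NDUFS7, UQCRB and ATP5L2. Among the tested probes, 40 (38.5%) were called higher and 2 (1.92%) lower in pLB, where 21.9% of all tested probes were called higher and 23.7% lower. By gene, with each gene represented by its brightest probe, 34 of 82 (41.5%) were higher and 0 were lower, compared with 22.7% and 23.0% of all genes. At an unadjusted p under 0.05 and no fold threshold, 59 genes were higher and 3 lower in limma. Student's t-test, which the methods name but not for the arrays, gave 32 higher and 0 lower. That count used an unadjusted p under 0.05 with the 2-fold threshold. Without the fold threshold, 57 subunit genes passed the adjusted p of limma as higher and 2, NDUFA5 and NDUFB1, as lower. The shares over all genes were then 32.4% higher and 31.0% lower. The median log2 difference was 0.83 over the 82 genes, or 1.78-fold, and 0.04 over all tested genes. Single genes ranged from -0.78 for NDUFA5 to 5.54 for COX7B2, which was near background in pLUM and whose difference carries no weight as a test. The groups of 3 arrays did not overlap for 58 genes (70.7%) that were higher in pLB and for 5 (6.10%) that were lower, against 35.7% and 33.5% of all genes.

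Respiratory chain probes are bright as a class, and 81 of the 104 fell among the brightest 25% of tested probes. Over all probes of this brightness class, 23.1% of probes were called higher and 18.2% lower, with a median log2 difference of 0.16. The 81 subunit probes had a median of 0.86, with 34 called higher and 1 lower. With the slide as a block, for which the comparison of lines rests on pLB replicate 1 and the pLUM arrays, 51 probes and 43 genes were higher, and the median over probes was 1.02.

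**Figure D1:**
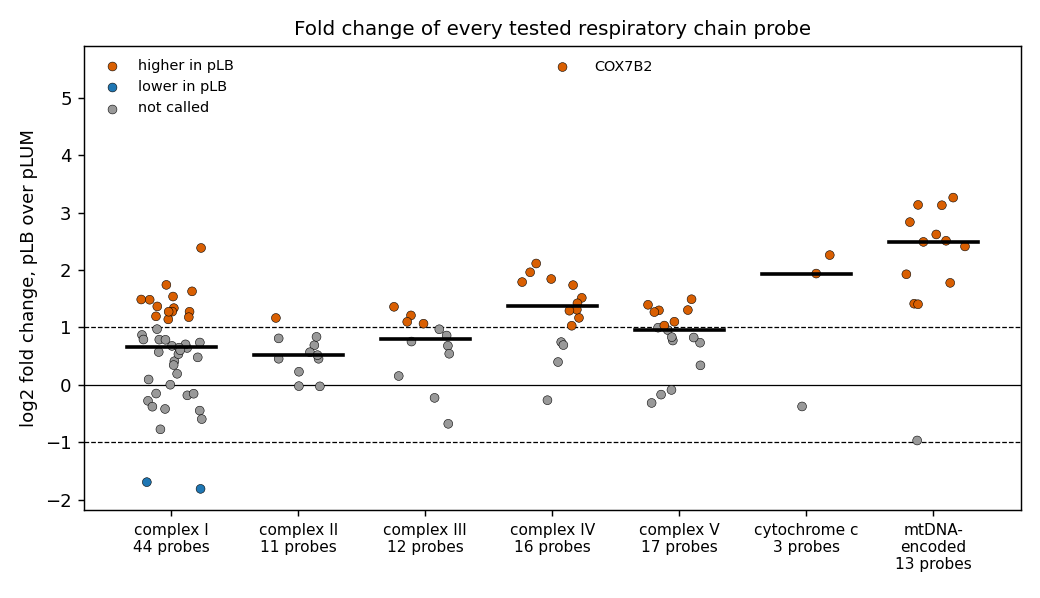
Log2 difference, pLB over pLUM, of 103 tested subunit probes by complex, and of the 13 mtDNA-encoded subunits. Each point is 1 probe, colored by its call, horizontal bars are medians, and dashed lines mark a 2-fold difference. The COX4NB probe is not plotted. Complex IV has the highest median of the nuclear complexes I to V, at 1.37, and the mtDNA-encoded group lies above it, at 2.49.

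**Figure D2:**
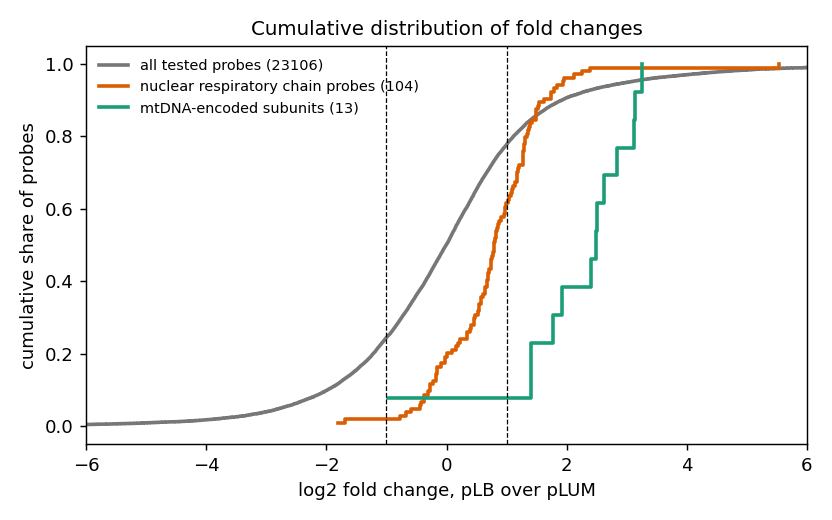
Cumulative share of probes at or below each log2 difference, for all 23106 tested probes, the 104 nuclear respiratory chain probes and the 13 mtDNA-encoded subunits. Dashed lines mark a 2-fold difference and values beyond 6 in either direction are not shown. The nuclear curve lies to the right of that of all probes for most of its length and crosses it above a difference of 1.

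The complexes differed in how many subunits passed. Of all genes, 22.7% were called higher. In complex I, 12 of 38 genes were higher (31.6%), with a median log2 difference of 0.66. In complex II it was 1 of 4, close to the share of all genes, with a median of 0.82. In complex III it was 4 of 9 (44.4%), with a median of 0.97. Complex IV had 11 of 14 tested genes higher (78.6%) and a median of 1.37, and complex V had 6 of 15 (40.0%) and a median of 0.95. The 11 include COX7B2, which was tested only because its pLB arrays were above background, and the dim COX6A2. Without the isoforms of particular tissues, 9 of 11 complex IV genes were called higher (81.8%). No gene of complexes I to V was called lower by its representative probe, where 23.0% of all genes were. Leaving out any array or changing the background correction, scaling or block left complex IV at 10 to 12 of 14, complex I at 11 to 17 of 38, complex V at 4 to 10 of 15 and complex III at 2 to 5 of 9. Differences between complexes were not tested.

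Complex I is built from a catalytic core and many accessory subunits, the NDUFA, NDUFB and NDUFC proteins among them. The accessory subunits that rose most were NDUFB9, NDUFA12 and NDUFS5. NDUFB9 had signals of 4.02, 4.09 and 3.88 on the pLUM arrays and 6.64, 6.41 and 6.10 on the pLB arrays. All pLB arrays were far above all pLUM arrays, and the difference of 2.39 (SE 0.19, 5.23-fold, adjusted p = 3.9e-05 from limma) was the largest of complex I. NDUFS5, measured by 10 spots per array, was at 4.47, 4.35 and 4.12 in pLUM and at 5.90, 5.84 and 5.81 in pLB. Its pLB arrays lay close together and above all pLUM arrays, and it was 2.91-fold higher (log2 difference 1.54, SE 0.16, adjusted p = 0.00017 from limma). NDUFA12, an accessory subunit added late in assembly, was covered by 2 probes in different parts of NM_018838, which rose by 1.63 (SE 0.16) and 1.74 (SE 0.22).

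Among the 7 nuclear-encoded core subunits of complex I, which carry the flavin and the iron-sulfur clusters, only NDUFS1 was called. This is 14.3%, below the 22.7% of all genes called higher, and the median of the core subunits was 0.54. NDUFS1, the largest of the core subunits, was at 2.34, 2.36 and 2.24 in pLUM and 3.56, 3.59 and 3.33 in pLB, a 2.26-fold increase (SE 0.16 on the log2 scale, adjusted p = 0.00052 from limma). NDUFS7 was called with the slide as a block and without pLB replicate 3. NDUFV1, which binds NADH, had 5.77, 5.67 and 5.72 in pLUM and 5.61, 5.42 and 5.67 in pLB. The lines touched, and its difference of -0.15 (SE 0.16) was not called. The 31 accessory subunits had 11 called higher (35.5%) and a median of 0.71. The other 8 of these lay between 2.21-fold for NDUFA8, under 2-fold with quantile normalization (0.95), and 2.80-fold for NDUFA3. The division into core and accessory subunits was made after the values were seen and was not tested.

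Some accessory subunits went the other way. NDUFA5 had signals of 2.16, 1.98 and 1.66 in pLUM and 1.12, 1.13 and 1.23 in pLB, with no overlap, and its decrease of 1.71-fold (log2 difference -0.78, adjusted p = 0.0078 from limma) stayed under the 2-fold threshold. NDUFB1 was 1.34-fold lower (log2 difference -0.42, adjusted p = 0.041 from limma) and NDUFB4 had a difference of 0.00 (SE 0.16). NDUFA4, which carries a complex I name although its protein is found in complex IV, was at 5.37, 5.60 and 5.71 in pLUM and 5.71, 5.63 and 4.79 in pLB, so that the lines overlapped. Its hypoxia-inducible relative NDUFA4L2 was dim in both lines and differed by 0.34 (SE 0.24). By their names, NDUFA4 and NDUFA4L2 were counted under complex I and not under complex IV, and neither was called. NDUFA3, NDUFA5, NDUFA8, NDUFB1, NDUFB4, NDUFS1 and NDUFV1 were chosen for naming after their values were seen.

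Complex II has 4 subunits and is the one complex without an mtDNA-encoded member. SDHA, the flavoprotein that oxidizes succinate, had signals of 5.92, 5.91 and 5.84 in pLUM and 6.28, 6.10 and 5.97 in pLB. The pLB arrays were higher by a narrow margin, and the difference of 0.23 (SE 0.16) was not called. SDHB, the iron-sulfur subunit, was at -1.71, -1.19 and -0.74 in pLUM and 0.36, 0.49 and -0.98 in pLB, with pLB replicate 3 inside the pLUM range. It just passed, at 2.24-fold (adjusted p = 0.048 from limma), and lost the call in 11 of the alternatives, among them each of the other scalings and the slide as a block. By their brightest probes, the membrane anchors SDHC and SDHD were 1.79-fold and 1.75-fold higher (adjusted p = 0.0056 and 0.0028 from limma) and thus under 2-fold. Over 3 tested probes each, SDHC had log2 differences of 0.45 to 0.84 and SDHD of 0.45 to 0.81. The 4 SDHA probes lay between -0.03 and 0.69, and the median over the 11 complex II probes was 0.52.

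In complex III, UQCRC1, a large core protein, was at 1.09, 1.02 and 1.12 in pLUM and 2.62, 2.49 and 2.21 in pLB. The lines were well separated and UQCRC1 was 2.57-fold higher (log2 difference 1.36, SE 0.17, adjusted p = 0.00038 from limma). Its partner core protein UQCRC2, with 10 spots per array, was at 3.41, 3.52 and 3.36 in pLUM and 3.36, 3.20 and 3.04 in pLB, and its difference of -0.23 (SE 0.16) was not called. CYC1, the cytochrome c1 that feeds electrons to cytochrome c, was at 2.07, 1.88 and 2.46 in pLUM and 2.65, 2.64 and 1.58 in pLB. pLB replicate 3 was the lowest of the 6 arrays and the other pLB arrays the highest, and the difference of 0.15 (SE 0.33) was not called. The small subunits UQCRB and UQCRQ were 2.31-fold and 2.14-fold higher. Without pLUM replicate 3 their log2 differences were 0.98 and 0.99, and with quantile normalization UQCRQ was at 0.83, each under 2-fold. UQCR11 was 2.09-fold higher, and under 2-fold with quantile normalization (0.85) and without pLB replicate 1 (0.91). UQCRC2 and UQCR11 were chosen for naming after their values were seen.

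Complex IV had the largest share of called subunits. Of 11 subunits used in most tissues, 9 were called higher, and the remaining COX4I1 and COX7A2 had differences of 0.75 (SE 0.39) and 0.69 (SE 0.20). COX7C, a small membrane subunit read by 10 spots per array, was at 4.48, 4.58 and 4.31 in pLUM and at 6.70, 6.60 and 6.41 in pLB. COX6A1 was at 5.63, 5.69 and 5.72 in pLUM and at 7.83, 7.74 and 7.36 in pLB. For both, every pLB array exceeded every pLUM array by over 1.5 on the log2 scale, and the increases were 4.33-fold (adjusted p = 3.8e-05 from limma) and 3.90-fold (adjusted p = 8.1e-05 from limma). COX6C, COX5B, COX6B1, COX7B, COX8A and COX5A were 3.46-fold, 2.86-fold, 2.68-fold, 2.48-fold, 2.45-fold and 2.04-fold higher. COX5A lost its call in 8 of the alternatives, among them quantile normalization (log2 difference 0.95), spike-in scaling (0.97) and each array left out except pLB replicate 3. Of these, COX6C, COX5A and COX5B were chosen for naming after their values were seen. COX7A2L, whose protein joins complexes III and IV into supercomplexes, rose in both of its probes, by 1.17 (SE 0.19) and 1.74 (SE 0.20). COX4I1 was at 2.75, 3.22 and 3.47 in pLUM and 4.40, 4.25 and 3.01 in pLB, with pLB replicate 3 again inside the pLUM range. Without that array its difference was 1.18 and passed.

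Several subunits of complex IV have a second gene used in particular tissues, such as heart, muscle, lung or testis. COX7B2, the testis-associated relative of COX7B, had the largest fitted difference of the members. Its signals were -5.07, -6.33 and -5.60 in pLUM, where 1 of 3 arrays was well above background, and 0.16, 0.10 and -0.64 in pLB. The lines were far apart, but the gene was tested only because the pLB arrays were above background, and its fitted difference of 5.54 (SE 0.36) therefore carries no weight as a test. Its size depended on the background correction, since normexp, which raises dim signals, gave 2.68. COX6A2, the heart and muscle form of COX6A1, was dim at -4.32, -5.21 and -5.21 in pLUM and -3.92, -3.17 and -2.11 in pLB. Its 3.59-fold increase (adjusted p = 0.011 from limma) was lost with normexp (log2 difference 0.32) and with the slide as a block (0.99). COX6B2 was not called by either of its probes, at 0.40 (SE 0.48) and -0.27 (SE 0.23). COX7A1 and COX8C were not well above background on any array. COX4I2 was well above background on 0 pLUM and 2 of 3 pLB arrays, was not tested, and was at least 1.13-fold higher in pLB, against the dimmest measurable signal of the pLUM arrays.

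**Figure D3:**
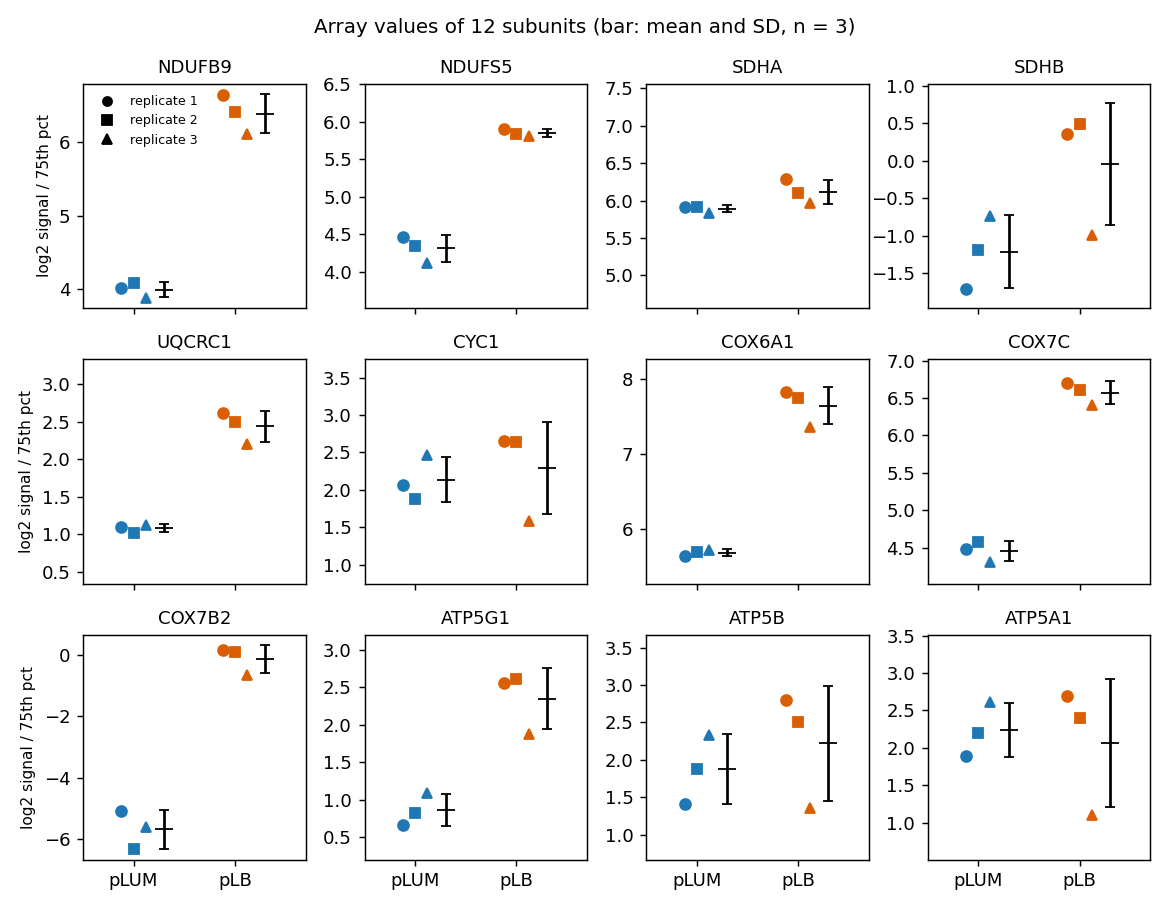
Signals of 12 subunits on each array, in log2 relative to the 75th percentile of the array, with mean and SD of the 3 arrays of each line beside the points. Symbols mark the replicate, and each panel has an axis of its own. The lines are separate for NDUFB9, NDUFS5, COX7C and COX6A1, whereas pLB replicate 3 falls within or below the pLUM range for SDHB, CYC1, ATP5B and ATP5A1.

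ATP synthase consists of a catalytic F1 head and an Fo sector with a ring of c subunits in the membrane, joined by stalks. Of the 10 Fo and stalk genes, 6 were higher, against 22.7% of all genes, and the median was 1.07. Of the 5 F1 genes, 0 were called higher or lower, where 22.7% and 23.0% of all genes were, and the median was 0.34. A set of 5 genes is too small for 0 calls to set it apart from these shares. At an unadjusted p under 0.05 and no fold threshold, 2 of the 5 passed as higher and 0 as lower in limma. The counts were the same with the adjusted p and no fold threshold, where 32.4% of all genes passed as higher and 31.0% as lower. ATP5E had a log2 difference of 0.997 at its brightest probe, just short of 1, but of -0.09 at its other tested probe. The brightest probe was called with normexp and with the slide as a block. It was also called without pLUM replicate 1, pLUM replicate 2, pLB replicate 2 or pLB replicate 3. ATP5D was called with the slide as a block. The split into F1 and Fo was made after the values were seen and was not tested.

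The c subunit is encoded by ATP5G1, ATP5G2 and ATP5G3, which give the same mature protein. ATP5G1 was at 0.67, 0.82 and 1.09 in pLUM and 2.56, 2.61 and 1.88 in pLB, and was 2.81-fold higher (log2 difference 1.49, SE 0.24, adjusted p = 0.0014 from limma). ATP5G2 was at 4.91, 5.06 and 5.09 in pLUM and 6.41, 6.36 and 6.18 in pLB, and was 2.46-fold higher (log2 difference 1.30, SE 0.16, adjusted p = 0.00032 from limma). Neither overlapped between lines. ATP5G3 was 1.71-fold higher (log2 difference 0.77, SE 0.28, adjusted p = 0.044 from limma) and passed 2-fold with the slide as a block and without pLB replicate 3. ATP5H, a stalk subunit, was 2.63-fold higher, from 3.47, 3.50 and 3.40 to 4.81, 4.82 and 4.93. ATP5J2, ATP5J and ATP5I, also of the Fo sector or stalk, were 2.41-fold, 2.14-fold and 2.05-fold higher, and were chosen for naming after their values were seen. ATP5J fell under 2-fold with quantile normalization (0.93) and without pLB replicate 2 (0.98), and ATP5I with quantile normalization (0.80), spike-in scaling (0.97), the slide as a block (0.89) and without pLB replicate 3 (0.93).

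In the F1 head, ATP5B, the catalytic beta subunit, was at 1.41, 1.88 and 2.34 in pLUM and 2.80, 2.51 and 1.35 in pLB. ATP5A1, the alpha subunit, was at 1.89, 2.20 and 2.62 in pLUM and 2.70, 2.40 and 1.10 in pLB. In both, pLB replicate 3 was the lowest of the 6 arrays, and the differences of 0.34 (SE 0.41) and -0.17 (SE 0.42) were within the spread. ATP5C1, the gamma subunit, was 0.32 lower (SE 0.18), with no overlap but without a call. ATP5A1, ATP5B, ATP5C1, ATP5D and ATP5E were chosen for naming after their values were seen.

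Among the subunits, pLB replicate 3 stood apart from the other pLB arrays. Relative to the pLUM mean, the median over the 104 probes was 1.02 on pLB replicate 1, 0.92 on replicate 2 and 0.54 on replicate 3. Replicate 3 was the lowest array of its line for 82 of 104 subunit probes (78.8%), whereas it was the lowest for 30.9% of all tested probes. The subunits were not alone in this. Among the gene lists described below, it was the lowest for 94.1% of import, porin and chaperone genes and 66.7% of partners outside the name rule. The share was 64.3% for citric acid cycle genes, 56.2% for assembly factors, 26.7% for biogenesis regulators and 0% for mtDNA-encoded subunits. Without this array 51 subunit probes and 44 genes were called higher, in place of 40 and 34, and the median over genes was 1.03. The array had a 75th percentile intensity of 449, the lowest of the 6, where the others had 474 to 869. Whether this bears on the difference was not tested.

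Of the 15 genes with more than 1 tested probe, 11 had the same call for all of them and 0 had probes called in opposite directions. The exceptions were CYCS, NDUFB5, NDUFB8 and NDUFC2. CYCS encodes cytochrome c. Its brightest probe, placed by the array design at position 5428 of NM_018947, was at 0.63, 0.24 and 0.33 in pLUM and -0.23, -0.16 and 0.46 in pLB, with a difference of -0.38 (SE 0.24). The other 2 probes, at positions 613 and 685, were higher by 2.26 (SE 0.28, adjusted p = 0.00033 from limma) and 1.94 (SE 0.25, adjusted p = 0.00044 from limma), each without overlap. With the mean of the probes in place of the brightest, CYCS was 1.27 higher and the sign was reversed. CYCS has many processed pseudogenes, as do SDHA and several small subunits, and which copies these probes detect was not tested.

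NDUFC2 and NDUFB5 gave the probes called lower. For NDUFC2, a membrane-arm subunit of complex I, the probe for NM_001204054 was at 0.56, 0.77 and 1.30 in pLUM and 1.94, 1.92 and 0.72 in pLB, with a difference of 0.65 (SE 0.37) that was not called. The probe for NM_004549, farther along the transcript, fell from -0.66, -0.35 and -0.39 to -1.90, -2.30 and -2.28, a 3.24-fold decrease (adjusted p = 0.0002 from limma). For NDUFB5, the probe for NM_001199958 fell from 2.03, 1.94 and 1.24 to -0.17, -0.11 and 0.06, or 3.51-fold (adjusted p = 0.00049 from limma), and that for NM_002492 differed by -0.60 (SE 0.22, adjusted p = 0.0503 from limma). With the mean of the probes, NDUFB5 was called lower, at -1.21. For NDUFB8, 1 probe was called (1.48, SE 0.25) and the other lay just under 2-fold (0.97, SE 0.15). The discordant probes are given as 60-base sequences in the sense of the transcript, with their hg19 positions, for NDUFC2 at chr11:77790643-77790702 on the minus strand and NDUFB5 at chr3:179332782-179332841 on the plus strand, beside an NDUFA12 probe that rose, at chr12:95387952-95388011 on the minus strand.
NDUFC2, not called: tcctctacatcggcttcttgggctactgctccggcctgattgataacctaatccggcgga
NDUFB5, lower in pLB: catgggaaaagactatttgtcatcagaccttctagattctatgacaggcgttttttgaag
NDUFA12, higher in pLB: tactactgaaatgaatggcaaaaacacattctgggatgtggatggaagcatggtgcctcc

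**Figure D4:**
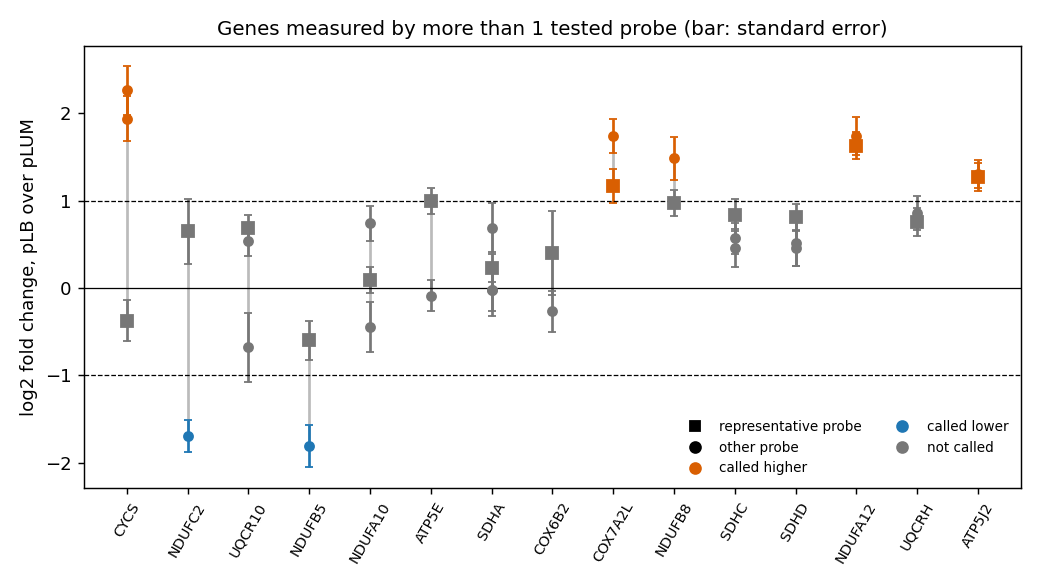
Log2 difference, pLB over pLUM, for each tested probe of the 15 genes with more than 1, with the standard error of limma. Squares are the representative probe, circles the others, colors the call, and dashed lines mark 2-fold. CYCS spans from -0.38 to 2.26 and NDUFC2 from -1.70 to 0.65, whereas the probes of NDUFA12, UQCRH and ATP5J2 lie close together.

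The subunits encoded by mtDNA were measured by 13 probes, 1 for each of the 13 proteins. Of these, 12 were higher in pLB (92.3%, against 22.7% of all genes) and 0 lower (against 23.0%). The count of lower ones was also 0 by limma at an unadjusted p under 0.05 and by Student's t-test. The median log2 difference was 2.49, or 5.62-fold. ND2, a proton-pumping core subunit of complex I, was at 4.10, 3.68 and 4.07 in pLUM and 6.98, 7.13 and 7.52 in pLB (9.61-fold, log2 difference 3.26, SE 0.21, adjusted p = 1.6e-05 from limma). COX3, a core subunit of complex IV, was at 5.98, 5.58 and 5.90 in pLUM and 8.51, 8.89 and 9.48 in pLB (8.79-fold, log2 difference 3.14, SE 0.27, adjusted p = 5.8e-05 from limma). The lines were apart by several log2 units for both. The smallest increases among the 12 were those of COX1 and ND4L, at 1.41 each. Copies of mtDNA lie in the nuclear genome, and the design lists the COX1 probe on chromosome 1 instead of mtDNA.

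ND6, a further complex I subunit and the only one of the 13 proteins encoded on the light strand of mtDNA, was the exception. It was at -0.46, -0.40 and 0.80 in pLUM and -1.71, -0.90 and -0.37 in pLB, with a small overlap and a difference of -0.97 (SE 0.45, adjusted p = 0.096 from limma). It was called lower with spike-in scaling (-1.03), with the slide as a block (-1.69) and without pLB replicate 3 (-1.28). ND6 was chosen for naming after its values were seen. The order of the pLB arrays differed from that of the nuclear subunits, since the mtDNA median was 2.16, 2.32 and 2.94 above the pLUM mean on replicates 1, 2 and 3, and replicate 3 was the highest array of its line for 13 of 13 probes. The probes for ND2 (bases 4914 to 4973 of mtDNA), COX3 (bases 9410 to 9469) and ND6 (bases 14449 to 14508, minus strand) are given in the sense of the transcript.
ND2, higher in pLB: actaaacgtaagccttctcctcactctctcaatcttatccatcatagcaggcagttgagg
COX3, higher in pLB: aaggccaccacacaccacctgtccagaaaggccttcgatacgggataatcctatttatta
ND6, not called: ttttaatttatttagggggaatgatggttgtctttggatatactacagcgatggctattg

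**Figure D5:**
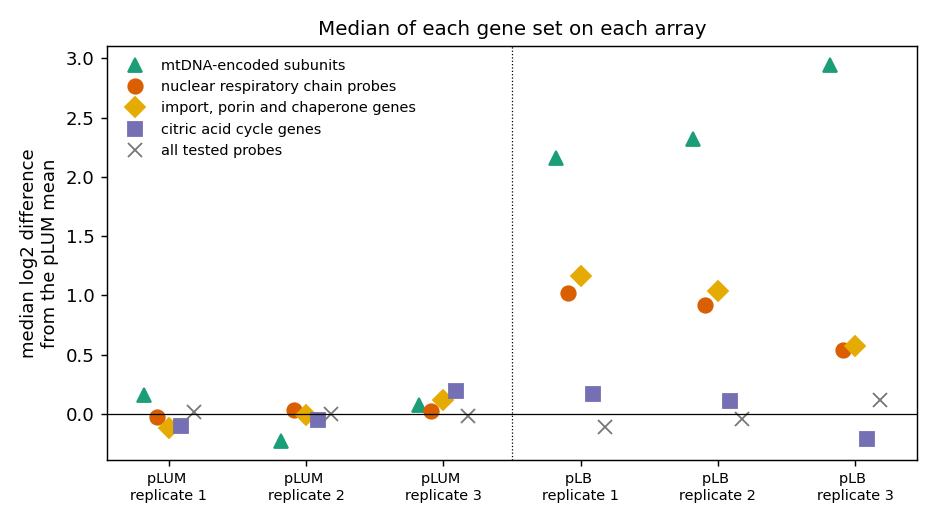
Median log2 difference from the pLUM mean on each array, for nuclear respiratory chain probes, mtDNA-encoded subunits, import, porin and chaperone genes, citric acid cycle genes and all tested probes. On pLB replicate 3 the nuclear and import medians are the lowest of the line, at 0.54 and 0.57, and the mtDNA median is the highest, at 2.94.

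Other genes of the pathway were taken from lists. Among 12 subunits or partners outside the name rule, 5 were higher (41.7%, against 22.7% of all genes) and 1 lower (8.33%, against 23.0%). HIGD2A and HIGD1A, small proteins associated with complex IV, were 3.46-fold and 3.43-fold higher (adjusted p = 6.6e-05 and 6.7e-05 from limma), although a dim second probe of HIGD1A was 2.40-fold lower and the mean of its probes was not called (0.26). ETFA, the alpha subunit of the electron transfer flavoprotein, was 3.73-fold lower, while its partner ETFB was 2.82-fold higher. Of 32 tested assembly factors, 7 were higher (21.9%, where 22.7% of all genes were) and 3 lower (9.38%, where 23.0% were), with a median of 0.05. ECSIT, needed for complex I assembly, and LRPPRC, which stabilizes mtDNA-encoded mRNAs, were 3.48-fold and 3.23-fold higher, whereas the copper handling factors COX19 and COX11 were 2.95-fold and 2.25-fold lower.

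Of 15 tested regulators of mitochondrial biogenesis, 4 were higher (26.7%, close to the 22.7% of all genes) and 2 lower (13.3%, against 23.0%). ESRRA, an orphan nuclear receptor, was at 2.40, 2.61 and 2.55 in pLUM and 4.41, 4.40 and 4.23 in pLB (3.55-fold, adjusted p = 5.7e-05 from limma), although its dimmer second probe was not called (0.76, SE 0.33). GABPA, an ETS factor, was at 0.32, 0.43 and 0.13 in pLUM and -1.36, -1.29 and -1.10 in pLB, a 2.91-fold decrease (adjusted p = 0.00018 from limma). NRF1 was dim and 1.46-fold lower, under the fold threshold (adjusted p = 0.042 from limma). SSBP1, which coats single-stranded mtDNA, was 2.41-fold higher, and POLG2, the accessory subunit of the mtDNA polymerase, was 2.90-fold lower. TFAM, which packages mtDNA, was 1.46-fold higher and under the fold threshold.

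Genes of the citric acid cycle, in the same organelle, had a median of -0.04, with 1 of 14 higher and 1 lower (7.14% each, against 22.7% and 23.0% of all genes). MDH2 was 2.59-fold higher (adjusted p = 0.039 from limma) but lost the call under 9 of the alternatives, and DLD, a shared dehydrogenase subunit, was 2.89-fold lower. The transcript of CS, the citrate synthase, differed by 0.22 (SE 0.15) and was not called. Mitochondrial content was not measured. Of 17 import, porin and chaperone genes, 8 were higher (47.1%, against 22.7% of all genes) and 1 lower (5.88%, against 23.0%), with a median of 0.92. Differences between lists were not tested. TOMM22, a receptor of the outer membrane import pore, and the porin VDAC1 were 4.05-fold and 3.80-fold higher, and VDAC3 was 2.83-fold lower.

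Promoters were searched for short motifs of the factors named above, in RefSeq windows of GRCh38.p14 from 250 bases before to 50 after the start site, on both strands. The letters CCGGAAG, an ETS motif bound by GABPA, were present in 20 of 69 matched members (29.0%) and in 10.3% of all 35116 promoters. CGCATGCG, the core of the NRF1 motif, was present in 10 members (14.5%) and in 2.02% of all promoters, and TCAAGGTCA, bound by ESRRA, in 1 member (1.45%) and in 0.353% of all. The GABPA letters were in 12 of 29 members called higher and in 8 of 39 not called, and the NRF1 letters in 6 and 4. A match is only a match of letters, and binding was not measured. The set of all promoters was not limited to genes tested here, so the shares are of unlike sets. The windows of COX4I1 and of COX4NB, which is not a subunit, overlap, and the same GABPA letters are counted for both. SDHD held all 3 motifs, the NRF1 letters 109 bases and the GABPA letters 77 bases before the start site, and those of ESRRA from base 12 after it. COX6A1 and ATP5H were both called higher. COX6A1 held the NRF1 letters 219 bases and the GABPA letters 16 bases before the start site, and ATP5H held the GABPA letters alone, at 101 bases. The 250 bases before the start sites of these 3 genes are given in the direction of the gene with motifs in capitals (GABPA and NRF1, on either strand), from chr11:112086623-112086872 on the plus strand for SDHD, chr12:120437863-120438112 on the plus strand for COX6A1, and chr17:75046970-75047219 on the minus strand for ATP5H.
SDHD: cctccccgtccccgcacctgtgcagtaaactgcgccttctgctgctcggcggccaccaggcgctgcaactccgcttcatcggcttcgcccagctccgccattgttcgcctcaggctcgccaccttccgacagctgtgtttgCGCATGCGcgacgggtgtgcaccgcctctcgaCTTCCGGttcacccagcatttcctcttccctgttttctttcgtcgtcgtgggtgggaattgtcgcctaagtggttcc
COX6A1: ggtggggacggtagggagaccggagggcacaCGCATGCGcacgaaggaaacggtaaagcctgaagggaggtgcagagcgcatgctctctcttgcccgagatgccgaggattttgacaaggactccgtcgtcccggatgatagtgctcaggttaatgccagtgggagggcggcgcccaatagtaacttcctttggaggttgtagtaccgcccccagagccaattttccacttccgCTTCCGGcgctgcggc
ATP5H: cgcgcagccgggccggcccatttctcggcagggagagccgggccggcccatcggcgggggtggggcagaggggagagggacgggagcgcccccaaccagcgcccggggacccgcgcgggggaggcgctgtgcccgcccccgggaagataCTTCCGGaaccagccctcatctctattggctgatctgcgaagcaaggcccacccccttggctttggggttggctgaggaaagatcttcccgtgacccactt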

How the data were processed

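RNA of 3 sorts of pLUM (1 nM E for 72 h) and 3 of pLB (EWD) was hybridized to 1-colour Agilent arrays. The authors deposited Agilent Feature Extraction 10.10.1.1 output, in which every spot has a linear intensity, background-corrected within the array and not normalized between arrays. Positions in the files are hg19.

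From the deposited intensities, log2 values minus each array's 75th percentile were computed. Outlier spots (296 to 387 per array) and control spots were dropped before replicate spots were averaged. The 23106 of 34127 probes that the scanner software marked well above background on 3 or more of the 6 arrays entered lmFit and eBayes of limma 3.58.1 (R 4.3.3), with Benjamini-Hochberg adjustment over all of them. The fit was tested on simulated data. The number of arrays limits the precision. An exact two-sided permutation test of 3 against 3 arrays cannot give p below 0.1. A gene was represented by its brightest probe.

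The members and gene lists were chosen with earlier results of these data known. Named were, per complex, the 3 genes with the largest called change in each direction, isoform pairs, CYC1, CYCS, SDH genes, members dim throughout a line and, per list, the 2 genes with the largest called change in each direction. Other genes were named after their values were seen. Replicate numbers were not used to pair the arrays in the main fit. Alternatives were normexp (offset 50), quantile, median and spike-in (9 probes) scaling, other filters, blocks, thresholds and probe rules, Student's test, and leaving out each array. Promoter and probe sequences are from RefSeq and the array files. Single values of 1 member are not reported here.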

Additional observations from a re-analysis of the deposited data

How the results depend on the processing

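Arrays were not paired in the main fit, because the sources do not say whether same-numbered sorts of the lines shared a batch or day. Deviations of same-numbered arrays correlated at -0.27, -0.09 and -0.22, and a replicate block left 38 subunit probes and 32 genes higher, 2 probes and 0 genes lower, and medians of 0.79 and 0.83. The median log2 difference stayed above 0 under all settings. With the slide as a block it was 1.02 over probes and 1.06 over genes. With each array left out in turn it was 0.69 to 0.97 over probes and 0.72 to 1.03 over genes, highest without pLB replicate 3, and 37 to 51 probes and 31 to 44 genes were higher. Quantile normalization gave the fewest, 33 probes and 27 genes. Without the fold threshold, 67 probes and 57 genes were higher and 4 probes and 2 genes lower, and 17 pathway genes were lower in place of 8. Without the filter on dim probes, 5 probes and 2 genes were lower. With the mean of a gene's probes, 1 gene was lower and CYCS was reversed, at 1.27. With normexp, 3004 of all tested probes were higher in place of 5054, 4034 were lower in place of 5477, and their median was -0.26, against 41 subunit probes higher. Of 53 named members, 34 kept their side of the threshold in every alternative. The causes were not tested. Signal over background limited COX7B2, COX6A2, COX4I2, COX7A1 and COX8C, and 3 arrays a line limited all values.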
